A study of Mus musculus with 32 samples.

Results

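F-box genes encode the substrate-binding subunits of SCF ubiquitin ligases, and their transcripts were followed here through mouse preimplantation development. The members were the rows whose symbol starts with Fbxo, Fbxw or Fbxl and a number, without pseudogene symbols. This gave 78 of the 24013 genes in the table of stages and the same 78 of the 22536 genes in each of the knockdown tables. They comprised 37 Fbxo genes, 22 Fbxw genes, 18 Fbxl genes and Fbxl12os, an antisense RNA that carries the family's symbol and does not encode an F-box protein.

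In an SCF ligase the F-box motif docks on the adaptor SKP1, which is held by the scaffold CUL1 together with the RING protein RBX1, and the rest of the F-box protein picks the substrate. Fbxw proteins bind substrates through WD40 repeats, Fbxl proteins through leucine-rich repeats, and Fbxo proteins through other domains. In oocytes and early embryos ubiquitin-dependent proteolysis is known for control of the meiotic arrest, of the exit from meiosis and of the removal of maternal proteins.

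Polyadenylated RNA was sequenced after a slightly changed Smart-seq2 procedure, which copies whole transcripts from few cells. The stages were MII oocytes of C57BL/6N mice (2 samples) and, from matings of C57BL/6N females with DBA/2N males after hormone injection, zygotes and embryos at the early 2-cell, 2-cell, 4-cell and 8-cell stage (2 samples each), the inner cell mass (ICM, 3 samples) isolated by immunosurgery, and embryonic stem cells (mESC, 2 samples) of the R1 line, 1 established line, grown with LIF and serum. The knockdown sets were 8-cell embryos injected with Nr5a2 siRNA (4 libraries) or labelled as knockdown control (4), and blastocysts injected with Gata4 siRNA (4) or labelled as knockdown control (3), all of the same cross and cultured in CZB medium. Nr5a2 is an orphan nuclear receptor and Gata4 a transcription factor of the primitive endoderm. The stage table gives 1 FPKM value (fragments per kilobase of transcript, scaled to library size) per gene and stage, with no spread between samples, so stage differences below are descriptions without a test. Whether knockdown libraries of a group came from separately injected embryos is not given in the sources used here, and p-values measure the spread between these libraries.

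Between 8388 and 9580 genes reached 1 FPKM per stage, 7703 to 8370 per 8-cell knockdown library and 7378 to 8945 per blastocyst library. The 6 oocyte markers summed to 5330 FPKM in MII oocytes and 2.29 FPKM in mESC. None of 7 cumulus and granulosa markers reached 1 FPKM in the oocyte or in any embryo column of the stage table. In blastocyst controls 2 and 3 and Gata4 knockdown libraries 1 and 4, 1 of the 7 did. Their sums were 6.99, 6.24, 1.56 and 18.8 FPKM in these libraries. The ICM column had all 6 trophectoderm markers at 1 FPKM or more, with a sum of 170 FPKM against 2200 to 4470 FPKM in the whole blastocysts of the knockdown set. The targeted gene Nr5a2 had 23.6, 20.3, 13.1 and 25.2 FPKM in the control libraries, against 3.76, 4.25, 6.72 and 6.60 FPKM after its knockdown. Gata4 had 3.18, 0.716 and 5.44 FPKM in the control libraries, against 0, 0.368, 0 and 0 FPKM after its knockdown, and was below the filter used for testing. In 3 blastocyst libraries (control 2 and Gata4 knockdown 1 and 2) the ribosomal RNA precursor Rn45s was listed at 0, and in the other 4 it was at 37960 to 44720 FPKM. The labels give no reason for this split.

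One group within the family was a tandem array of Fbxw genes. On chromosome 9 of GRCm38, 13 measured Fbxw genes (Fbxw13, Fbxw14, Fbxw15, Fbxw16, Fbxw18, Fbxw19, Fbxw20, Fbxw21, Fbxw22, Fbxw24, Fbxw26, Fbxw27 and Fbxw28) lay between positions 109139447 and 109790670, a span of 651 kb, all 13 on the minus strand. Their coding sequences were 82.4% to 99.1% identical over the 78 pairs (median 85.5%). Fbxw14 and Fbxw28 were the most alike, at 99.07% over 100% of the coding sequence, and their separate values are uncertain, since a short read may match both.

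Sequence around the start sites was more alike than the coding sequence in most pairs. RefSeq promoters (GRCm38.p6, 250 bases before to 50 after the start, 300 bases) were at hand for 10 of the 13 genes, and their 45 pairs were 85.9% to 97.7% identical (median 91.5%). In 42 of these 45 pairs the promoters shared a higher percentage of aligned bases than the coding sequences did. Within the array Fbxw24 had the highest level, and Fbxw14 belongs to the near-identical pair. Fbxw15 had the largest difference between MII oocyte and zygote, and Fbxw16 alone matched the letters CCAAT in the motif search. For these reasons the promoters of these 4 genes are printed 5′ to 3′ on the minus strand. They lie at chr9:109626010-109626309 (Fbxw24), chr9:109287627-109287926 (Fbxw14), chr9:109568213-109568512 (Fbxw15) and chr9:109449091-109449390 (Fbxw16), and capitals mark E-boxes, the letters CANNTG.
Fbxw24: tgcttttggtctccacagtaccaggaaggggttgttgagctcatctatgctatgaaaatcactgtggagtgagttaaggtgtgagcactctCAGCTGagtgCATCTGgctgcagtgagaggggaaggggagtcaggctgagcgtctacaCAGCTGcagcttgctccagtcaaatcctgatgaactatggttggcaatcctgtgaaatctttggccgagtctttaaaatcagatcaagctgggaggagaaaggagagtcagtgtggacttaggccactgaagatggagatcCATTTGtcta
Fbxw14: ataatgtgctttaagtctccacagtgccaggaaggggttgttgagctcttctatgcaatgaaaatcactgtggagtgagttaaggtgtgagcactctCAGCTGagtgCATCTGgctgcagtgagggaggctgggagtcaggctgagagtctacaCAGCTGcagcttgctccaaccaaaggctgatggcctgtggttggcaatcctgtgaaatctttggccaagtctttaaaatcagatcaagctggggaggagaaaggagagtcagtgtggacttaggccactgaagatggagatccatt
Fbxw15: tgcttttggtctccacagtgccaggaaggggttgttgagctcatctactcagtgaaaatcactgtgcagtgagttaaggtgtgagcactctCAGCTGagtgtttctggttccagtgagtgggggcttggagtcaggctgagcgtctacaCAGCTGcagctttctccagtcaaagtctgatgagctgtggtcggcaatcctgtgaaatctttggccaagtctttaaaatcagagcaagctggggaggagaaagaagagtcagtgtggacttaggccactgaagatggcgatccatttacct
Fbxw16: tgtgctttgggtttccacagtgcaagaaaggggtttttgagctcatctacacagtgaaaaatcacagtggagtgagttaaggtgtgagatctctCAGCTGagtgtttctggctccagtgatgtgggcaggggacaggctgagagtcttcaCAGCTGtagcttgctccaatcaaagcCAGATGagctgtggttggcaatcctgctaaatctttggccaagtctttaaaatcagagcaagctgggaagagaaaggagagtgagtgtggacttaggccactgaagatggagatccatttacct

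E-boxes are recognised by basic helix-loop-helix factors such as the oocyte factor FIGLA. These letters, CANNTG, occurred in 10 of 10 array promoters and in 72.31% of all 32851 promoters in the same table. Each array promoter held 2 to 5 matches (median 3.5), against a median of 1.0 over all promoters. The form CAGCTG, singled out after the sequences were seen, was in 10 of 10 array promoters and in 16.3% of all promoters. In 9 of the 10 a pair of CAGCTG started 55 to 60 bases apart, a spacing also chosen after it was seen and found in 39 promoters overall (0.119%). Relative to the start site the pair began at −153 and −96 in Fbxw14 and at −156 and −100 in Fbxw16. Fbxw20 had a single CAGCTG. Both strands were searched. The E-box letters read the same on both, and every CAGCTG is also counted as a CANNTG. The TATA box letters TATAAA, present in 13.62% of all promoters, had no match in the 10 windows. The same held for TAATTG, a homeobox-type motif found in 8.0% of all promoters, and for the E-box form CACGTG, found in 7.15%. A CCAAT box (the letters CCAAT, 37.41% of all promoters) matched in Fbxw16 alone. The homeobox-type letters TGATTG, found in 14.04% of all promoters, also matched in Fbxw16 alone, where they overlap the CCAAT box on the other strand. The GC box letters GGGCGG, found in 35.66% of all promoters, matched in Fbxw18 alone. Genes of a tandem array share their sequence by descent, so the 10 promoters are not independent.

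**Figure D1:**
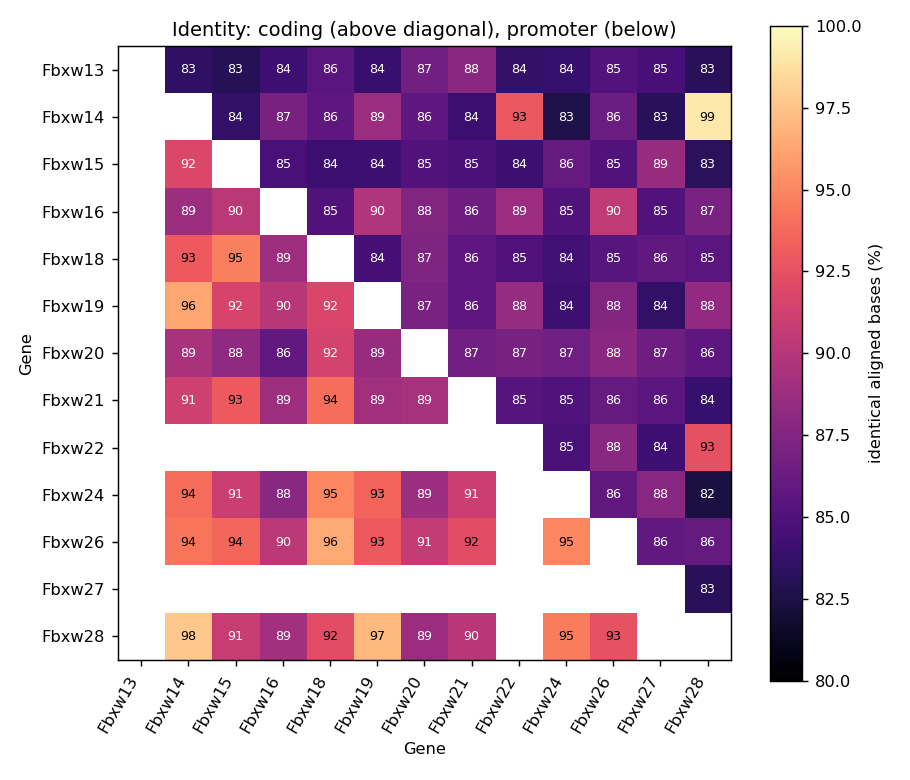
Percentage of identical aligned bases for each pair of the 13 array genes, coding sequences above the diagonal and RefSeq promoters below it, with white cells where no promoter entry was matched. The Fbxw14 and Fbxw28 pair is the palest cell above the diagonal (99.1%), and most cells below the diagonal are paler than their mirror cells above it.

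The array held the highest levels of the family in oocytes and zygotes and was near 0 in mESC. Summed over the 13 genes, they were 3924 FPKM in MII oocytes, 5024 in zygotes, 2516 in early 2-cell embryos, 403.4 in 2-cell embryos, 113.7 in 4-cell embryos, 33.06 in 8-cell embryos, 9.169 in ICM and 0.1973 in mESC. As a share of the summed FPKM of all 78 members this was 75.7% in MII oocytes, 85.5% in zygotes, 76.3% in early 2-cell embryos, 28.8% in 2-cell embryos and 0.0654% in mESC. Of the array's genes 10 stood among the 12 members with the highest level in any stage. FPKM is relative to all RNA in a library, so a difference in a gene's share and a difference in RNA per embryo cannot be told apart.

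Fbxw24 was the most abundant member of the family in MII oocytes, zygotes and early 2-cell embryos. It was at 1344, 1449, 619, 129, 40.6, 14.8, 2.41 and 0.197 FPKM from MII oocyte through zygote, early 2-cell, 2-cell, 4-cell, 8-cell and ICM to mESC. Fbxw28 followed the same order with 523, 907, 443, 43.1, 11.5, 2.35, 1.602 and 0 FPKM, and its near-copy Fbxw14 with 579, 902, 478, 55.2, 16.0, 2.84, 1.53 and 0 FPKM. The weakest of the 13 was Fbxw13, which peaked at 11.6 FPKM in zygotes and was at 5.61 FPKM in MII oocytes and 3.96 FPKM in 2-cell embryos.

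The other 9 genes peaked between 108 FPKM (Fbxw21) and 360 FPKM (Fbxw15). Over the same 8 stages Fbxw15 was at 171, 360, 191, 31.5, 10.5, 2.81, 1.11 and 0 FPKM. Fbxw22 was at 248, 272, 157, 10.3, 2.30, 0.457, 0.353 and 0 FPKM. These 2 genes peaked in the zygote, but the distance from the oocyte was larger for Fbxw15. Fbxw20 was at 199, 215, 103, 11.2, 1.67, 0.604, 0.176 and 0 FPKM. Fbxw16 was at 120, 180, 83.7, 31.5, 9.23, 1.72, 0.351 and 0 FPKM. Fbxw20 had the higher level up to the early 2-cell stage and Fbxw16 from the 2-cell stage to the ICM. Fbxw27 was at 137, 145, 115, 16.5, 3.20, 1.52, 0.587 and 0 FPKM. Fbxw21 was at 72.6, 108, 65.8, 12.4, 3.21, 0.875, 0.134 and 0 FPKM. Fbxw26 was at 55.6, 116, 42.1, 6.29, 3.04, 1.41, 0.106 and 0 FPKM, with the largest difference of the 13 from zygote to early 2-cell.

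Of the 13 genes 11 were higher in the zygote than in the MII oocyte, from Fbxw27 (137 and 145 FPKM) to Fbxw15 (171 in the oocyte and 360 in the zygote). Fbxw19 was at 246, 179, 111, 32.8, 8.34, 2.27, 0.365 and 0 FPKM over the 8 stages. Fbxw18 was at 223, 179, 98.8, 20.0, 2.88, 1.25, 0.262 and 0 FPKM. These 2 genes had their highest level in the oocyte. In mESC 12 of the 13 were listed at 0.

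**Figure D2:**
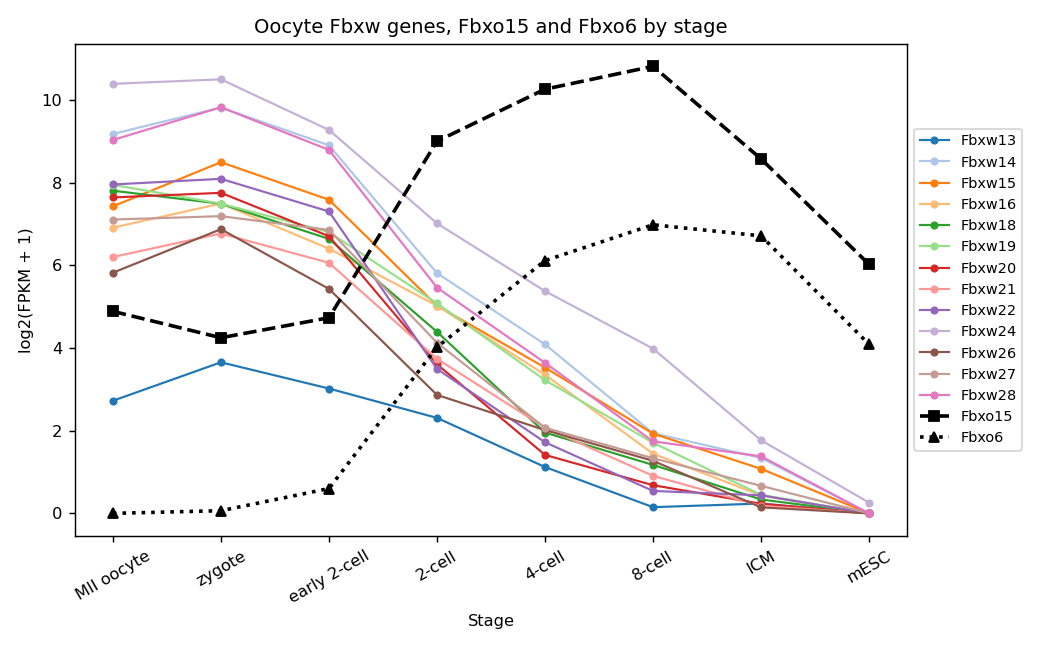
Levels of the 13 array genes (coloured lines) and of Fbxo15 and Fbxo6 (black lines) as log2(FPKM + 1) against stage, 1 deposited value per point. The coloured lines are highest at the zygote or oocyte and end at 0 to 0.197 FPKM in mESC, while Fbxo15 and Fbxo6 are higher from the 2-cell stage on and peak in 8-cell embryos.

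In all 13 genes each stage from early 2-cell to 8-cell had a lower value than the one before. Levels in zygotes were 2.93-fold (Fbxw13) to 26.5-fold (Fbxw22) those of 2-cell embryos, with a median of 11.3-fold. For the 9 genes still at 1 FPKM or more in 8-cell embryos, zygotes were 79.0-fold (Fbxw19) to 386-fold (Fbxw28) higher. The array was compared with all genes at 50 FPKM or more in zygotes, without matching of starting levels. Its 12 genes above that cut-off were at 108 (Fbxw21) to 1449 FPKM (Fbxw24) in zygotes. A gene near 50 FPKM has less room for a lower log2(FPKM + 1) value than these genes. Among the 1148 genes with at least 50 FPKM in zygotes, the median difference of the 2-cell stage from the zygote was −1.75 in log2(FPKM + 1), and 42.4% were lower by at least 2. For the 12 array genes above that level the median was −3.48, and 12 of 12 were lower by at least 2. For the 5 other family members above it (Fbxo5, Fbxo8, Fbxo34, Fbxo43 and Fbxl5) the median was −1.56. By the 8-cell stage the medians were −6.42 for the array, −1.94 for those 5 members and −2.39 for all such genes. The 6 oocyte markers moved with these values, with sums of 5330 FPKM in MII oocytes, 222 in 2-cell and 43.7 in 8-cell embryos, and their part in the array's values was not tested.

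Across the family 68 of 78 members (87.2%) reached 1 FPKM in at least 1 stage, against 55.7% of all genes. The number at 1 FPKM or more was 57 (73.1%) in MII oocytes, 55 in zygotes, 56 in early 2-cell, 55 in 2-cell, 50 in 4-cell and 40 (51.3%) in 8-cell embryos, 45 in ICM and 37 (47.4%) in mESC. For all genes the share stayed between 34.9% and 39.9%. Of the 68 detected members 19 (27.9%) were highest in MII oocytes and 16 (23.5%) in zygotes, where 24.3% and 8.09% of all detected genes were highest. In ICM 7 (10.3%) were highest, and 3 (4.41%) in mESC, where 17.8% and 11.8% of all detected genes were. Of the 16 members highest in zygotes, 11 belonged to the array.

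**Figure D3:**
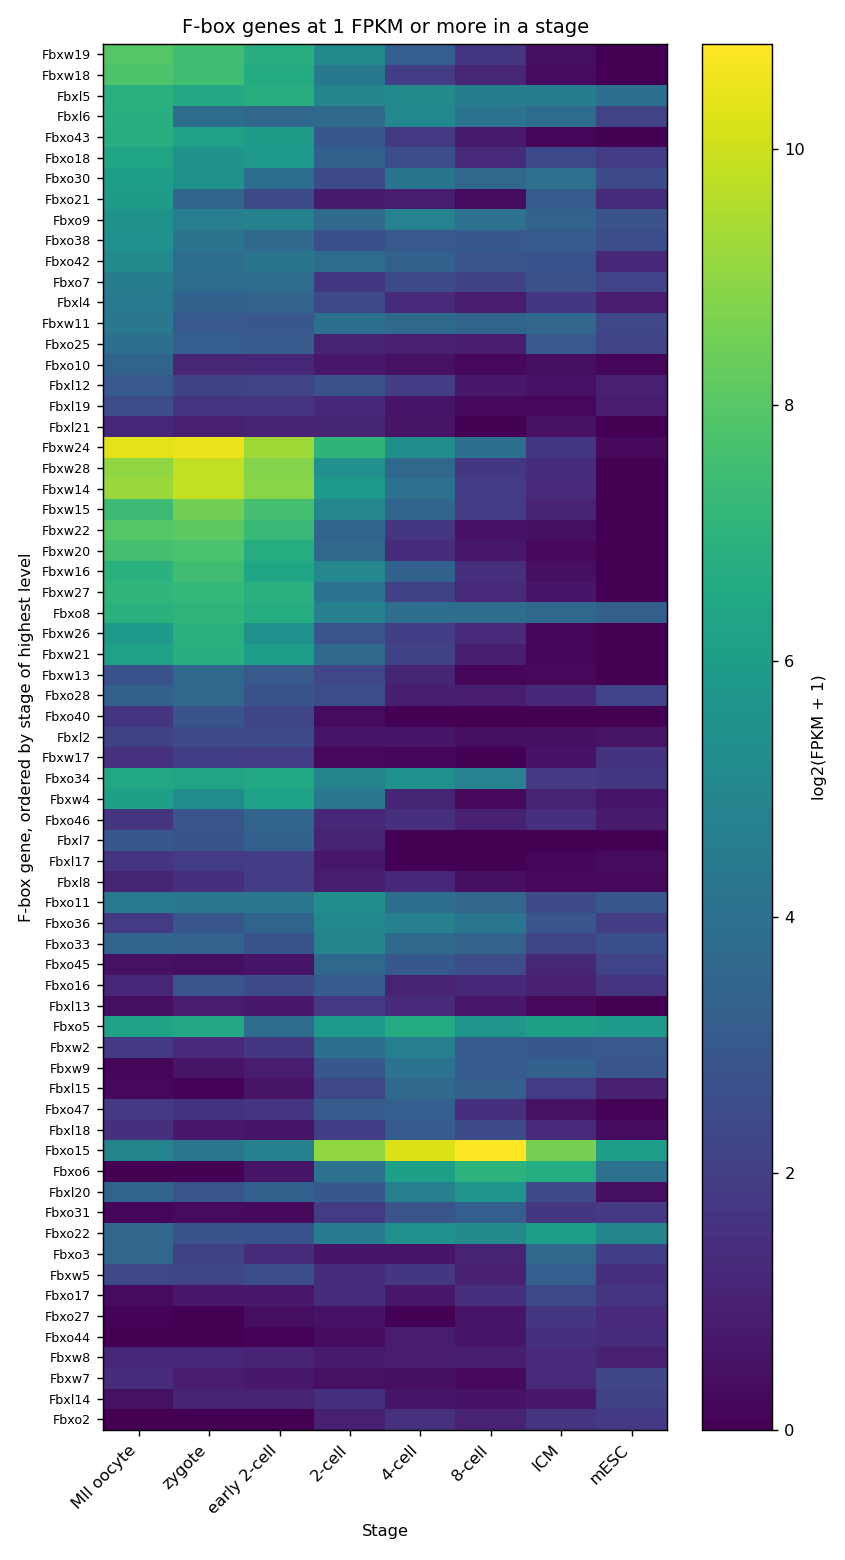
Levels of 67 of the 68 members that reached 1 FPKM in a stage, as log2(FPKM + 1) by colour, with genes in rows ordered by the stage of their highest level and stages in columns. The bright block at the upper left holds the array genes, and the bright row in the lower right is Fbxo15, at 1802 FPKM in 8-cell embryos.

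Steps between consecutive stages were counted where a gene differed by at least 1 in log2(FPKM + 1) and had at least 5 FPKM in the higher stage. From MII oocyte to zygote 6 members were higher (7.69%) and 8 lower (10.3%), beside 3.27% and 5.64% of all genes. From zygote to early 2-cell 1 member was higher (1.28%; all genes 1.31%) and 8 lower (10.3%; all genes 2.1%), and 5 of those 8 were array genes. From early 2-cell to 2-cell, the step that spans the main activation of the embryonic genome, 12 members were higher (15.4%; all genes 10.5%) and 27 lower (34.6%; all genes 10.4%), 12 of the 27 from the array. From 2-cell to 4-cell 10 were higher (12.8%; all genes 6.58%) and 17 lower (21.8%; all genes 4.73%), 11 of the 17 from the array. From 4-cell to 8-cell none was higher (all genes 1.72%) and 11 were lower (14.1%; all genes 2.43%), 6 of them from the array. From 8-cell to ICM 4 were higher (5.13%; all genes 7.65%) and 9 lower (11.5%; all genes 6.03%). From ICM to mESC none was higher (all genes 3.02%) and 10 were lower (12.8%; all genes 10.5%). These all-gene shares also count genes below 1 FPKM in both stages. At 1 FPKM or more in either stage were 64 members and 11092 genes from early 2-cell to 2-cell. Of these, 12 members and 2519 genes were higher, and 27 members and 2489 genes were lower. Counted in this way, 8 of 58 members and 1352 of 9573 genes were lower from MII oocyte to zygote. From ICM to mESC it was 10 of 47 members and 2527 of 10122 genes.

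Stage columns were on different scales. Their FPKM summed over all genes ranged from 234738 (2-cell) to 495643 (MII oocyte). The median of 4739 genes detected in every stage lay at −0.547 in mESC and 0.261 in ICM, on the log2 scale relative to the geometric mean of the stages. After scaling the stages to that median, 6 members were higher and 5 lower in mESC than in ICM, so the direction of that step depended on the scale. The array's counts at the 2-cell, 4-cell and 8-cell steps (12, 11 and 6 lower) were the same after scaling, and its count from zygote to early 2-cell was 2 in place of 5.

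Fbxo15, a target of the pluripotency factor OCT4 and a classical reporter gene of embryonic stem cells, was the member with the highest level in every stage from the 2-cell stage on. It was at 28.6, 18.0 and 25.6 FPKM in MII oocytes, zygotes and early 2-cell embryos, at 512 and 1228 FPKM in 2-cell and 4-cell embryos, and at 1802 FPKM in 8-cell embryos. In ICM it was at 381 FPKM and in mESC at 64.1 FPKM. The next member in 8-cell embryos was Fbxo6 with 125 FPKM.

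Fbxo6, whose protein recognises N-linked glycans on misfolded glycoproteins, reached by far the highest level in a group of related F-box genes. It was listed at 0 in MII oocytes and was at 0.0457, 0.516, 15.2, 68.3, 125, 104 and 16.0 FPKM in the stages from zygote to mESC. Its relatives Fbxo2 and Fbxo44 lie beside it on chromosome 4, Fbxo6 at 148145716 to 148152140, Fbxo44 at 148152800 to 148160482 and Fbxo2 at 148160621 to 148166424 (GRCm38), but peaked at 2.58 and 1.73 FPKM. Fbxo17 and Fbxo27, of the same group, peaked at 4.17 and 2.26 FPKM, both in ICM.

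Members with cell-cycle roles fell into separate patterns. Fbxo43 (EMI2), the inhibitor of the anaphase-promoting complex that holds oocytes at metaphase II, was at 105, 73.8, 62.2, 6.74, 2.59, 0.726, 0.103 and 0.0332 FPKM from MII oocyte to mESC. Its paralog Fbxo5 (EMI1), which inhibits the same complex in interphase, was present throughout with 74.3, 91.6, 13.1, 56.9, 99.3, 48.5, 68.2 and 55.02 FPKM, and the early 2-cell value was its lowest. Fbxw7, which targets cyclin E and MYC, stayed at or below 3.76 FPKM, its level in mESC. Fbxw11, a beta-TrCP protein, was at 19.1 FPKM in MII oocytes and between 3.91 and 14.4 FPKM elsewhere. Fbxo30, known for a role in chromosome segregation in mouse oocytes, was at 66.4 FPKM in MII oocytes, 44.9 in zygotes, 13.8 in early 2-cell, 4.74 in 2-cell and 17.3 in 4-cell embryos.

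Several other members were lower in the zygote than in the oocyte. Fbxl6 was at 108 FPKM in MII oocytes and 13.3 in zygotes, and at 32.3 FPKM in 4-cell embryos. Fbxo21 was at 60.4 and 10.6 FPKM in MII oocytes and zygotes, at 0.270 FPKM in 8-cell embryos and at 7.96 FPKM in ICM. Fbxo10 was at 10.1 and 1.26 FPKM in MII oocytes and zygotes. Fbxo3, at 10.8 FPKM in MII oocytes and 3.24 in zygotes, was at or below 1.59 FPKM from the early 2-cell to the 8-cell stage and highest in ICM with 11.7 FPKM. Fbxo38 was at 43.6 and 16.9 FPKM in MII oocytes and zygotes. Fbxo25 was at 14.4 FPKM in MII oocytes, 0.842 in 8-cell embryos and 7.02 in ICM, and Fbxw5 at 4.06, 0.970 and 8.30 FPKM. With Fbxo3 and Fbxo21 these were the 4 members counted as higher in ICM than in 8-cell embryos.

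The zygote or early 2-cell embryo held more of a few low members than the oocyte. Fbxo16 was at 1.30 FPKM in MII oocytes, 6.14 in zygotes, 7.91 in 2-cell and 1.03 in 4-cell embryos. Fbxo46 was at 2.17, 6.23, 10.5 and 1.38 FPKM from MII oocyte to 2-cell. Fbxl7 was at 9.33 FPKM in early 2-cell and 1.12 in 2-cell embryos.

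Several further members were still above 50 FPKM in early 2-cell embryos. Fbxl5, the iron-sensing subunit that targets iron regulatory proteins, was at 115, 90.7, 106, 30.2, 33.4, 22.8, 23.2 and 14.3 FPKM from MII oocyte to mESC. Fbxo8, which carries a Sec7 domain, was at 118, 135, 102, 24.9, 13.9, 13.8, 11.4 and 8.58 FPKM. Fbxw4 was at 68.3, 35.9, 77.4, 19.2, 1.18, 0.223, 1.05 and 0.510 FPKM, and was the member counted as higher in early 2-cell embryos than in zygotes. However, 21.41% of the exonic bases of Fbxw4 overlap Gm17018 on the opposite strand. Fbxo34 was at 86.5, 77.8, 88.0, 28.6, 41.9, 26.9, 2.46 and 2.34 FPKM, values that are uncertain because a transcript of Gm7224 is 96.11% identical over 93.03% of its coding sequence. Fbxo18 (FBH1), a DNA helicase, was at 84.5, 44.9, 54.9 and 9.37 FPKM from MII oocyte to 2-cell.

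Members counted as higher at the 2-cell stage included Fbxo45, Fbxo33 and Fbxo36. Fbxo45 was at 0.540 FPKM in early 2-cell and 11.7 FPKM in 2-cell embryos. Fbxo33 was at 6.08 and 29.3 FPKM, Fbxo36 at 10.3 and 31.9 FPKM, and Fbxo11 at 18.3 and 39.4 FPKM in the same stages. Fbxw2 was at 2.32, 14.5 and 24.8 FPKM in early 2-cell, 2-cell and 4-cell embryos, and Fbxw9 at 0.842, 6.66 and 16.5 FPKM. Fbxo22, which targets the repressor BACH1 and histone demethylases, was at 5.61, 20.4, 44.0, 33.5 and 64.8 FPKM from early 2-cell through 8-cell to ICM.

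Fbxl genes of the 4-cell and 8-cell stages included Fbxl20, at 6.96, 25.4 and 50.2 FPKM in 2-cell, 4-cell and 8-cell embryos and at 4.67 and 0.318 FPKM in ICM and mESC. Fbxl15 was at 3.88, 11.8 and 8.64 FPKM and Fbxl18 at 3.08, 7.96 and 4.71 FPKM in the same embryo stages. For Fbxl15, 25.59% of the exonic bases overlap Cuedc2 on the opposite strand. Fbxo31, which targets cyclin D1, was at 2.82, 6.19, 8.36 and 2.26 FPKM from 2-cell to ICM, and Fbxo47 at 7.49, 8.37, 1.72 and 0.387 FPKM. There were 10 members that reached 1 FPKM in none of the 8 stages. They were Fbxl12os, the muscle ligase Fbxo32 (atrogin-1), Fbxo4, Fbxo24, Fbxo39, Fbxo41, Fbxo48, Fbxl16, Fbxl22 and Fbxw10. A further muscle gene, Fbxo40, was at 2.08, 5.94 and 3.82 FPKM in MII oocytes, zygotes and early 2-cell embryos and at 0.231 FPKM or less from the 2-cell stage on.

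Partners of the F-box proteins were listed separately, and 34 of 35 genes of the SCF machinery were rows of the tables. Of these, 28 (82.4%; all genes 19.7%) reached 1 FPKM in all 8 stages. The highest level was in MII oocytes for 7 (20.6%), where 24.3% of the genes reaching 1 FPKM in any stage peaked. Skp1a, the adaptor gene, was at 2950, 1066, 783, 101.3, 99.98, 121.5, 309.6 and 294.7 FPKM from MII oocyte to mESC. Cul1, the scaffold, was at 655.5, 468, 495.9, 123.8, 49.53, 49.95, 27.19 and 13.1 FPKM. The RING subunit Rbx1 differed, with 13.8, 33.0, 53.6, 77.0, 67.0, 69.8, 44.0 and 185 FPKM, and its paralog Rnf7 was at 8.55 FPKM in early 2-cell, 278 in 2-cell and 526 in 8-cell embryos. From early 2-cell to 2-cell 10 of the 34 were lower (29.4%; all genes 10.4%) and 6 higher (17.6%; all genes 10.5%). Among the 11092 genes at 1 FPKM or more in either of these stages, 2489 were lower and 2519 higher. F-box genes under other symbols were not part of the family count. Skp2, which targets the cell-cycle inhibitor p27, peaked at 57.9 FPKM and Ccnf (cyclin F) at 66.3 FPKM, both in 4-cell embryos, and Btrc at 21.3 FPKM in 8-cell embryos.

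In the Nr5a2 knockdown a single member, Fbxl12, passed the threshold. Each knockdown was compared with its controls by limma on log2(FPKM + 1) over all genes with at least 1 FPKM in 4 or more libraries for Nr5a2, and 3 or more for Gata4, with Benjamini-Hochberg adjusted p-values and a threshold of 0.05. Of the 78 members 38 were tested, 1 rose (all genes 1.57%) and none fell (all genes 0.698%), and 8 had an unadjusted p under 0.05, beside 1683 of 8170 genes. Among the 38, 25 differences were positive and 13 negative, with a median of 0.141, where the median of all genes was 0.118. Scaling the libraries to their medians brought these to 0.0432 and 0.0174. Groups did not overlap in 6 of the tested members, among them Fbxl5, Fbxl12, Fbxo9, Fbxo22 and Fbxo30, beside 11.8% of all genes. Fbxo45, also without overlap, stayed below the filter with 0.252 to 0.648 FPKM in controls and 0.884 to 2.16 FPKM in knockdown libraries. The same held for the array gene Fbxw13, at 0 to 0.146 FPKM in controls and 0.152 to 0.491 FPKM in knockdown libraries.

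Fbxl12, known to target the cell-cycle inhibitor p57, was at 0.898, 0.432, 4.17e-09 and 0.693 FPKM across the control libraries and at 5.16, 2.96, 1.78 and 3.72 FPKM across the knockdown libraries. The groups did not overlap, and all 4 controls were below 1 FPKM, so the gene entered the test through its knockdown libraries alone. Its log2 difference was 1.53 (SE 0.30, limma adjusted p = 0.0343), and it was 2.86 with 0.1 and 0.60 with 5 as pseudocount. The call was lost with a pseudocount of 0.1 (adjusted p = 0.0715), without a filter (0.138), without control 1, 2, 3 or 4 (0.0727, 0.0876, 0.0771 and 0.0569) and without knockdown library 1, 2 or 4 (0.0689, 0.0833 and 0.0706). Fbxl12 lies on the minus strand of chromosome 9 at 20618118 to 20644767 (GRCm38), and 37.13% of its exonic bases (1890) are shared with exons of Ubl5, a ubiquitin-like protein gene on the opposite strand. Ubl5 rose in the same libraries, from 61.8, 43.8, 50.5 and 60.7 FPKM to 119, 116, 83.0 and 84.9 FPKM (log2 difference 0.88, SE 0.19, limma adjusted p = 0.0441). Smart-seq2 in its usual form does not mark strand, so reads of these genes in the shared exons cannot be told apart.

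Fbxo30 was at 0.726, 2.04, 2.13 and 1.39 FPKM across the control libraries and at 7.95, 2.71, 5.56 and 8.49 FPKM across the knockdown libraries. The groups did not overlap, but the difference of 1.43 (SE 0.34) missed the threshold (limma adjusted p = 0.0520). Without knockdown library 2, the lowest of its group, adjusted p was 0.0431. With a pseudocount of 5 the difference was 0.74. The uninjected 8-cell column had 11.1 FPKM of Fbxo30, above all 4 injected controls.

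Lower in the knockdown without reaching the threshold were Fbxo9 and Fbxl5. Fbxo9 was at 17.9, 21.3, 24.1 and 19.3 FPKM in controls and 15.6, 9.86, 8.76 and 12.9 FPKM in knockdown libraries (log2 difference −0.78, SE 0.23, limma adjusted p = 0.0931). Fbxl5 was at 9.06, 6.38, 13.9 and 8.37 FPKM in controls and 3.20, 5.02, 5.94 and 3.02 FPKM in knockdown libraries (−0.97, SE 0.29, adjusted p = 0.0995). In both genes every knockdown library was below every control.

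Fbxo15 was at 1412, 1523, 1341 and 1519 FPKM in controls, compared with 879, 886, 1442 and 1205 FPKM in knockdown libraries. Knockdown library 3 lay within the control range, and the difference of −0.42 (SE 0.16) did not pass (limma adjusted p = 0.176). The same library stood apart for Fbxl20, which was at 59.9, 67.6, 40.2 and 50.3 FPKM in controls, compared with 25.1, 7.20, 66.1 and 34.8 FPKM in knockdown libraries (−1.03, SE 0.50, limma adjusted p = 0.269). Without knockdown library 2, the lowest, the difference was −0.46 (adjusted p = 0.506). Fbxo2 was at 5.86, 5.65, 1.33 and 3.86 FPKM in controls and 2.57, 1.14, 1.43 and 3.42 FPKM in knockdown libraries (−0.66, SE 0.38, limma adjusted p = 0.341). Without control 3, the lowest control, the difference was −1.01 (adjusted p = 0.154). The groups overlapped in Fbxo15, Fbxl20 and Fbxo2.

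Higher values without a call were also seen for Fbxo22 and Fbxo8. Fbxo22 was at 18.3, 17.3, 26.7 and 22.7 FPKM in controls and 28.2, 28.4, 28.4 and 33.4 FPKM in knockdown libraries (log2 difference 0.48, SE 0.20, limma adjusted p = 0.197), and 15.37% of its exonic bases overlap Nrg4 on the other strand. Fbxo8 was at 2.67, 2.68, 6.06 and 4.83 FPKM in controls and 9.76, 8.54, 4.23 and 7.27 FPKM in knockdown libraries (0.75, SE 0.31, adjusted p = 0.203), and its groups overlapped. Fbxo5 (14.7 to 28.8 FPKM in controls, 18.3 to 27.1 in knockdown) and Fbxw11 (5.71 to 9.99 and 8.01 to 10.7) overlapped, while Fbxw7 (0.407 FPKM or less) and Fbxo43 (0.145 FPKM or less) were below the filter. Of the array only Fbxw15 and Fbxw24 were tested. Fbxw24 was at 3.62, 1.30, 4.05 and 3.08 FPKM in controls, compared with 4.48, 4.33, 2.44 and 1.22 FPKM in knockdown libraries, a difference of 0.01 (SE 0.35, adjusted p = 0.994).

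**Figure D4:**
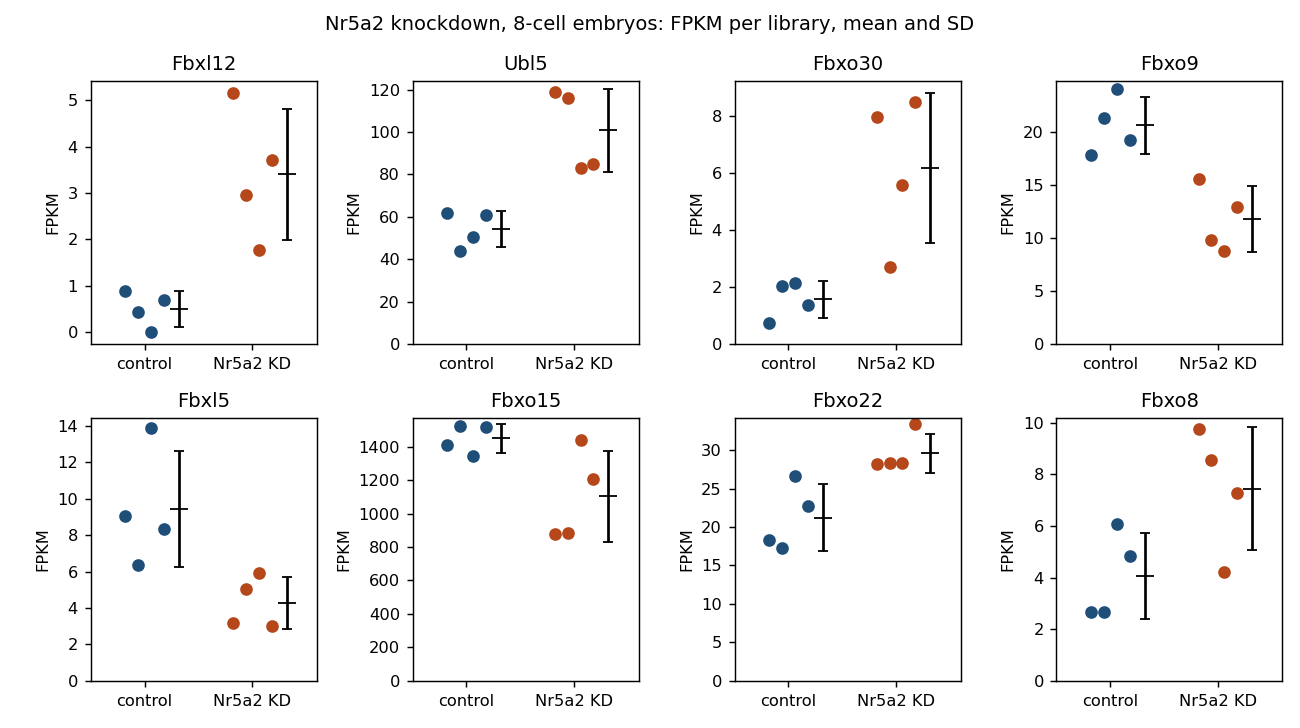
FPKM of 7 F-box genes and of Ubl5 in each 8-cell library, controls in blue and Nr5a2 knockdown in orange, with the mean and SD beside each group of 4 and each vertical axis on its own scale. Fbxl12 and Ubl5 are separated between groups in the same direction, while for Fbxo15 knockdown library 3 sits at 1442 FPKM among the controls.

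The SCF machinery gave no call in this knockdown. Of 29 genes tested 20 differences were positive and 9 negative (median 0.148), and 5 had an unadjusted p under 0.05. Among all 8170 genes tested 4943 were positive and 3227 negative (median 0.118), and 1683 had such a p. After scaling the libraries to their medians, the median of the SCF genes was 0.0344. Cks1b, the cofactor of SKP2, was at 121, 154, 176 and 143 FPKM in controls and 280, 246, 204 and 181 FPKM in knockdown libraries (log2 difference 0.61, SE 0.18, limma adjusted p = 0.0984).

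In the Gata4 knockdown no member passed the threshold by limma. Of 42 members tested 15 differences were positive and 27 negative (median −0.0551; all genes −0.0166), and none had an unadjusted p under 0.05, beside 202 of 8782 genes. The sign of that median depended on single libraries. It was 0.0301 without control 2 (all genes 0.173), 0.0382 without knockdown library 3 (all genes 0.132) and 0.0136 without knockdown library 4 (all genes 0.0795). A p that misses the threshold does not show that levels did not differ. No gene rose (0.0%) and 3 genes fell (0.0342%) among all genes tested. Among the tested members groups did not overlap for Fbxo18 and Fbxo27, beside 2.38% of all genes tested. Fbxl16, also without overlap, stayed below the filter with 0.144 to 0.279 FPKM in controls and 0.303 to 0.766 FPKM after knockdown. Fbxo18 had 4.42, 5.28 and 4.83 FPKM in controls, with 3.93, 4.23, 2.34 and 1.69 FPKM after knockdown (log2 difference −0.58, SE 0.39, limma adjusted p = 1.0). Fbxo27 had 5.81, 5.25 and 8.29 FPKM in controls, with 5.08, 5.20, 3.32 and 4.28 FPKM after knockdown (−0.44, SE 0.39). For Fbxo27 the nearest values of the groups were 5.25 and 5.20 FPKM, so the gap was narrow.

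The other members with the smallest unadjusted p all overlapped between groups, and every adjusted p was 1.0. Fbxo3 had 6.81, 9.13 and 8.25 FPKM in controls, with 7.55, 6.64, 2.28 and 5.26 after knockdown (log2 difference −0.57). Fbxl19 had 1.40, 3.03 and 1.84 FPKM, with 0.953, 1.56, 1.24 and 1.07 after knockdown (−0.46). Fbxw9 had 29.99, 24.1 and 36.6 FPKM, with 23.6, 14.7, 19.7 and 26.4 after knockdown (−0.51). In these 3 genes the lowest library belonged to the knockdown. Fbxo33 had 0.287, 1.27 and 0.517 FPKM, with 2.54, 1.90, 0.511 and 1.13 after knockdown (0.55). Fbxw17 had 3.35, 2.98 and 4.34 FPKM, with 4.43, 5.43, 4.02 and 6.63 after knockdown (0.42). Fbxl8 had 1.89, 0.527 and 1.59 FPKM, with 1.37, 0.998, 2.38 and 3.82 after knockdown (0.40). In these 3 genes the highest library belonged to the knockdown. Fbxl4 had 1.56, 3.74 and 2.35 FPKM, with 4.52, 3.74, 2.25 and 2.59 after knockdown (0.28). Fbxo5 had 10.7, 23.6 and 7.56 FPKM, with 29.2, 30.8, 14.4 and 7.49 after knockdown (0.48). Fbxw7 lay between 0.770 and 1.15 FPKM in controls and between 0.322 and 1.65 after knockdown, and Fbxw11 between 5.02 and 10.3 and between 4.27 and 10.7 FPKM.

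Of 33 SCF genes tested none was called and none had an unadjusted p under 0.05, with 24 positive and 9 negative differences (median 0.0988), beside 4174 positive and 4608 negative among all genes (median −0.0166). The median of the SCF genes was −0.0723 and −0.00893 without control 1 or 3, −0.0386 and −0.0955 without knockdown library 1 or 2, and 0.411 and 0.277 without control 2 or knockdown library 3. It was −0.0513 with the library type as a covariate (all genes −0.126) and −0.13 over the libraries with Rn45s (all genes −0.184). No array gene passed the filter in blastocysts.

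Blastocyst libraries with and without Rn45s were compared in a separate fit. Fbxo15 was at 88.6 and 95.6 FPKM in the controls with Rn45s and at 88.8 and 90.9 FPKM across the knockdown libraries with it. Without Rn45s it was at 246 FPKM in the control and at 202 and 233 FPKM across the knockdown libraries. The 2 kinds of library did not overlap (log2 difference −1.32, limma adjusted p = 0.00455), and within each kind the Gata4 knockdown differed from control by −0.03 with Rn45s and −0.18 without. Fbxo5 was at 7.49 to 14.4 FPKM with Rn45s and 23.6 to 30.8 FPKM without (−1.38, adjusted p = 0.00528), and Fbxo22 at 8.60 to 11.7 and 18.7 to 20.6 FPKM (−0.95, adjusted p = 0.00529). Of the 42 members 17 were lower with Rn45s (40.5%, beside 51.0% of all genes). Fbxl8 alone was higher (1.59 to 3.82 against 0.527 to 1.37 FPKM, limma adjusted p = 0.0104), beside 14 of 8782 genes.

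**Figure D5:**
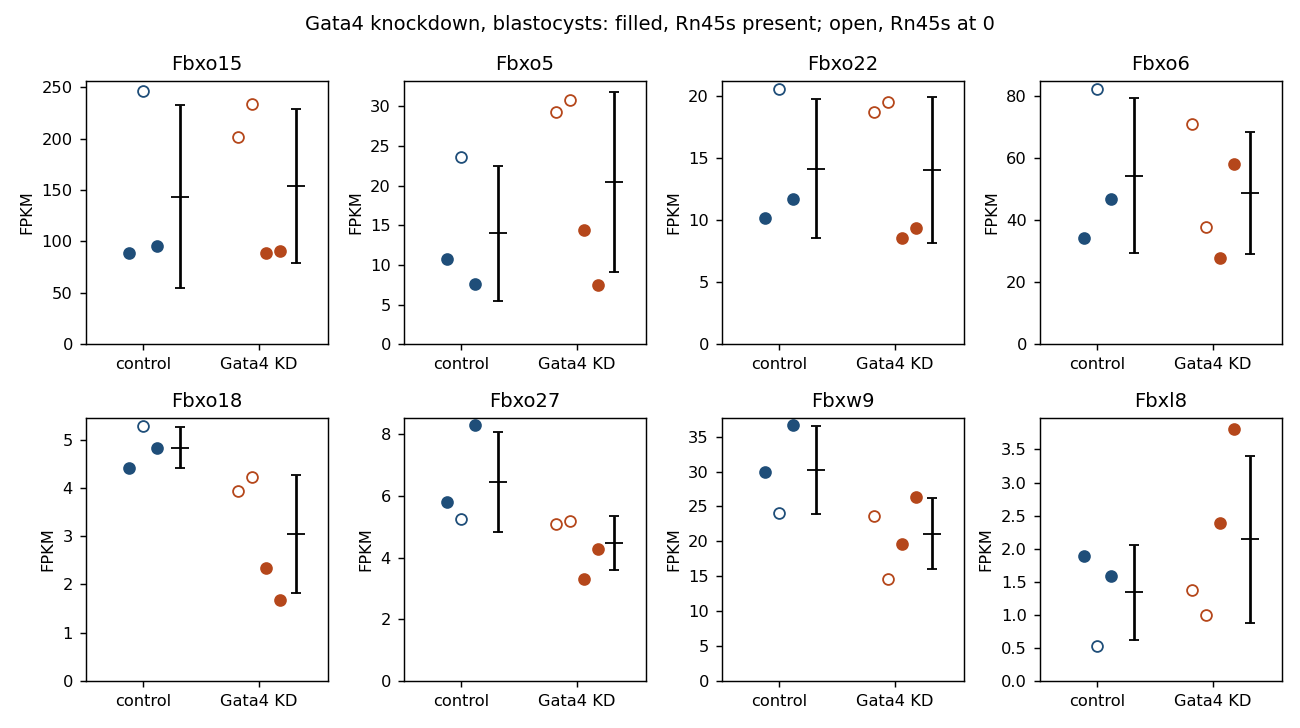
FPKM of 8 F-box genes in each blastocyst library, controls in blue and Gata4 knockdown in orange, with filled points for libraries with Rn45s and open points for those without, and the mean and SD beside each group of 3 or 4. Fbxo15, Fbxo5 and Fbxo22 separate by filled and open points in both groups.

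Injected controls and uninjected stages were normalized in separate tables, and their levels are set side by side without a test. The 8-cell column was above all 4 injected 8-cell controls for 24 of 44 members (54.5%; all genes 48.5%), below them for 9 (20.5%; all genes 21.7%) and within their range for 11. Members and genes were counted where the stage value or the control median reached 1 FPKM. Fbxw24 was at 14.8 FPKM in the uninjected column and 1.30 to 4.05 FPKM in the injected controls, and Fbxo11 at 10.7 and 1.504 to 2.612 FPKM. Fbxw9 was the other way round, at 7.75 and 21.8 to 26.6 FPKM. Between ICM and the whole blastocysts of the control set, which differ in tissue as well, 30 of 49 members were above (61.2%; all genes 55.8%), 12 below (24.5%; all genes 22.4%) and 7 within, and in these bulk samples fewer cells of a type and less RNA per cell cannot be told apart. Fbxo15 was at 381 FPKM in ICM and 88.6 to 246 FPKM in the blastocyst controls, and Fbxl12 at 0.453 and 2.41 to 10.6 FPKM.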

How the data were processed

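RNA of 32 samples was sequenced by Smart-seq2. Per the submitters' processing notes, CASAVA 1.8, STAR 2.4.0 and mm9 were used for all 32 samples and Cufflinks 2.2.1 for 20 of them. The authors deposited FPKM in 3 tables; how the samples of a stage became 1 column is not given in the sources used here. No column was left unused, and no family member lacked a value. Read totals were not used here, so FPKM carry no counting interval.

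Groups followed the labels. A gene was tested where the number of libraries at 1 FPKM or above reached the size of the smaller group. On the log2(FPKM + 1) scale, which understates changes of low genes, limma 3.58.1 with a variance trend (R 4.3.3) was fitted over all genes tested; p-values were Benjamini-Hochberg adjusted, with 0.05 as threshold. The fit was tested on simulated data. Replicates within knockdown groups correlated at 0.965 to 0.987. Positions and coding sequences came from GENCODE M21 (all 78 symbols found, Fbxo18 as Fbh1), copies from BLAST+ 2.17.0 (at least 95% identity over 50% of the coding sequence), and pair identities from Biopython 1.88. Promoters were matched for 57 of 78 members. Tables and figures used Python 3.11.15 with pandas 2.3.3, matplotlib 3.10.9, numpy 2.4.6 and scipy 1.17.1.

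The members and lists were chosen with earlier results of these data known. Named in full were members called in a knockdown, the 5 with the smallest unadjusted p in each direction, Fbxo5, Fbxo43, Fbxw7, Fbxw11 and Fbxo15, over stages the 12 highest members, up to 5 per step and direction, and the array genes. A gene that this rule covers is not reported here. Alternatives covered pseudocount, filter, scaling, replicate block, library type and each library left out.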

Additional observations from a re-analysis of the deposited data

Results flagged for a closer look

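Among 36 groups of 4 libraries checked for a single distant value, 1 stood out. By chance about 1 group in 20 does, so 1 of 36 is not more than chance gives. Fbxo22 was at 33.4 FPKM in Nr5a2 knockdown library 4, while the other 3 knockdown libraries lay at 28.2, 28.4 and 28.4 FPKM. All 4 were above the highest control (26.7 FPKM).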

How the results depend on the processing

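The call of Fbxl12 decided the Nr5a2 count of F-box genes, which was 1 with a pseudocount of 5, median scaling, quantile normalization and a replicate block, and 0 without a filter or with 0.1 as pseudocount. Leaving out each library gave 0 to 1; the 1 was Fbxl12 without knockdown library 3 and Fbxo30 without knockdown library 2. In the Gata4 knockdown the count was 0 under every alternative run. Of the gene-level alternatives 331 left direction and side of the threshold as they were, 9 lost a call, 1 gained one and 21 turned the sign of a difference that was never called. Fbxo5 in the Nr5a2 knockdown (0.06) was −0.0508 after median scaling and −0.0213 after quantile normalization, and −0.11 to 0.20 with a library left out. In the Gata4 knockdown Fbxw7 (−0.03) was 0.0027 with a pseudocount of 5, 0.0306 after quantile normalization and 0.16 with the replicate block (−0.18 to 0.16 with a library left out). Fbxo15 (0.13) was −0.0268 after quantile normalization, −0.0935 with library type as a covariate and −0.0343 in libraries with Rn45s (−0.14 to 0.60), and Fbxw11 (−0.11) was 0.0219 with the block (−0.36 to 0.10). The alternatives of the counts over the SCF list and over all genes were added after seeing the data. Counts over the SCF list were 0 in each of them. Over all genes the Nr5a2 knockdown called 185 genes, 108 with a pseudocount of 0.1, 11 without a filter and 21 to 285 with a library left out; the Gata4 knockdown called 3, and 0 to 27 over the alternatives.

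Same-numbered controls and knockdown libraries correlated at 0.0364, 0.0821, −0.108 and −0.0016 for Nr5a2 and at −0.0956, 0.277 and 0.0179 for Gata4. Not every library was most alike to its own number. The labels do not say whether equal numbers pair libraries, and so few values cannot decide it. With the replicate number as a block 1 F-box gene and 55 genes were called for Nr5a2, and 0 and 18 for Gata4.

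With a difference of at least 2, members higher and lower were 0 and 3 from MII oocyte to zygote, 0 and 1 to early 2-cell, 7 and 16 to 2-cell and 1 and 5 to 4-cell, and lower were 1 to 8-cell, 4 to ICM and 2 to mESC. With 1 FPKM in the higher stage, 7 were higher and 14 lower in ICM than in 8-cell embryos, and 3 higher in mESC than in ICM. After median scaling of the stages 4 were lower from zygote to early 2-cell, 1 was higher from 4-cell to 8-cell, and 6 were higher and 5 lower from ICM to mESC. At 5 FPKM or more 31 members were counted in 4-cell, 22 in 8-cell, 20 in ICM and 12 in mESC. The cause of these shifts was not tested.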
